A study of Arabidopsis thaliana with 6 samples.

Results

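The 26S proteasome was followed through the transcripts of 46 Arabidopsis thaliana loci that encode its subunits, out of 27655 loci in the deposited table. They were taken by locus identifier: 24 loci of the core particle, named PA for the outer rings and PB for the inner rings, and 22 loci of the regulatory particle, named RPT for the ATPases and RPN for the other subunits. The transcript isoforms of each locus were summed. The annotation used here gave the subunit name for 36 of the 46 loci. For the other 10 the name is the one commonly used for the locus, among them PAC2 (AT4G15165), which the annotation describes only as a part of the core complex whose best match is PAC1.

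The 26S proteasome degrades proteins that carry chains of ubiquitin. Its core particle is a barrel of stacked rings: the outer alpha rings form the gate and the inner beta rings hold the protein-cutting sites, which face the inside. The regulatory particle caps the barrel. Its base holds a ring of ATPases that unfold substrates and ubiquitin receptors that catch them, and its lid holds the enzyme that removes the ubiquitin chain. In Arabidopsis most subunits are encoded by a pair of paralogous genes, and in root tips the proteasome is known for clearing regulators of hormone signalling and of the cell cycle.

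RNA came from root tips in 6 samples, 3 from sos2-2 seedlings and 3 from wild type (WT). All seedlings were 6 days old and stood in liquid MS medium with 100 mM NaCl for 12 hours, so both groups were salt-treated and no sample without salt enters the comparison. The kinase SOS2 belongs to the Salt Overly Sensitive pathway, which drives sodium export from root cells. The series' design text also names gl1, but the labels do not say whether any plants were gl1 mutants. SOS2 itself (AT5G35410) had 22.02, 10.2 and 14.3 TPM in the sos2-2 samples, against 4.98, 5.81 and 5.44 TPM in the WT samples, and was called higher in the mutant (adjusted p = 0.00289, log2 fold change 1.30, SE 0.25). What sequence change sos2-2 carries is not in the labels, so this level is no check of them. Between 18812 and 19141 loci reached 1 TPM in a sample. TPM is a share of a fixed total of 1000000 per sample, and the sequencing depth is unknown. Separate cultures or plates are not stated for the replicates, so p-values cover only the variation among these 6 samples, and that variation may be technical.

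Most proteasome transcripts were lower in sos2-2 root tips than in WT root tips. All 46 loci passed the filter of a mean of 1 TPM, and 38 fell, 1 rose (PAC2) and 7 did not pass the test (limma on log2(TPM + 1), Benjamini-Hochberg adjusted p under 0.05). Of all 19527 loci tested, 34.1% were called lower and 31.3% higher. Of the 11401 tested loci with a mean between 10.5 and 175.6 TPM, the range of the members, 32.9% were called lower and 35.7% higher. The members' share called lower stood above this background, and their share called higher stood below it. In 42 members the 3 sos2-2 values all lay below the 3 WT values, against 37.1% of all tested loci. A fall of at least 2-fold was called in 10 members, against 16.8% of all tested loci, shares that lie near each other. The median log2 fold change was -0.69 over the 46 members and -0.05 over all tested loci. Summed over the 46 loci, proteasome transcripts made up 3456, 3542 and 3177 TPM in the sos2-2 samples, against 5735, 5216 and 5707 TPM in the WT samples, a 1.64-fold lower mean with no overlap between the groups. In bulk samples like these, fewer cells of a type and less RNA per cell cannot be told apart.

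Markers of other cell states also differed between the groups, not all in the same direction. Their counts stand beside 34.1% called lower and 31.3% called higher of all loci tested. All 8 listed genes of dividing cells fell, with a median log2 fold change of -2.23. Among them were KNOLLE, a syntaxin of cytokinesis, at 3.60 TPM in sos2-2, against 40.8 TPM in WT, and the replication clamp PCNA1, at 7.09 TPM in sos2-2, against 41.8 TPM in WT. Their summed level was 43.0 to 64.5 TPM in sos2-2 and 210.5 to 294.0 TPM in WT. Of 5 genes of differentiated root cells 4 fell, with sums of 128.0 to 312.2 TPM in sos2-2 and 779.3 to 931.5 TPM in WT, among them COBL9 of root hairs (10.2 TPM in sos2-2, against 52.3 TPM in WT) and CASP2 of the endodermis. CASP2 had 2.52, 24.4 and 6.42 TPM in the sos2-2 samples, against 108, 149.8 and 134 TPM in the WT samples, and sos2-2 replicate 2 was far above the other sos2-2 samples. Its log2 fold change was -3.90, and -4.67 without that sample. Of 8 genes of the stem cell niche and root cap 2 rose, the cap factors SMB (12.9 TPM in sos2-2, against 6.99 TPM in WT) and BRN2 (20.2 TPM in sos2-2, against 12.1 TPM in WT), 1 fell (FEZ, named after its values were seen) and 5 did not pass the test. Without sos2-2 replicate 1, 5 of the 8 were called. Their sums were 96.4 to 141.1 TPM in sos2-2 and 82.4 to 97.7 TPM in WT. Photosynthesis genes, markers of shoot tissue, were low in both groups, at summed levels of 16.3 to 39.0 TPM in sos2-2 and 66.0 to 94.2 TPM in WT. All 4 of them that passed the filter fell, with PSBO2 at 1.86 TPM in sos2-2, against 10.5 TPM in WT and RCA at 14.6 TPM in sos2-2, against 41.7 TPM in WT, and the other 3 of 7 were below it. No listed marker was at 0 in all samples. The part of these shifts in the proteasome values was not tested.

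**Figure D1:**
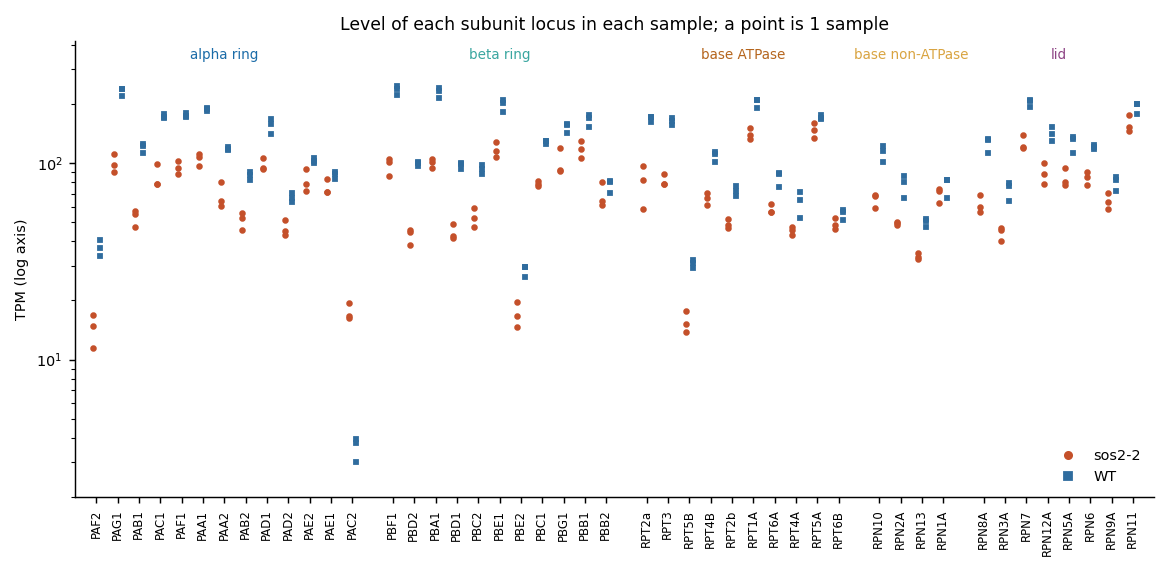
TPM of each of the 46 subunit loci in each sample, on a log axis, with circles for the 3 sos2-2 samples and squares for the 3 WT samples, ordered by subcomplex and fold change. The circles lie below the squares in 42 loci, and PAC2 is the locus with the circles above.

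Short stretches of promoter show how members that moved together, or apart, begin. The letters TGGGC are the core of an element through which the Arabidopsis factors NAC53 and NAC78 are known to bind proteasome gene promoters. They are in capitals below wherever they occur on either strand (GCCCA is the same site read on the other strand), and sites that overlap were counted one by one. All stretches are from RefSeq's TAIR10.1 genome, run 5′ to 3′ on the gene's strand and end at the base before the annotated transcript start. PBA1 and PAG1 are single-copy core genes that both fell more than 2-fold: PBA1 (chr4:15188594-15188743, forward strand) holds 3 such sites and PAG1 (chr2:11531179-11531328, reverse strand) holds none. PAC1 fell and its copy PAC2 rose: PAC1 (chr3:7794263-7794412, reverse strand) holds 1 whole site and PAC2 (chr4:8648682-8648831, forward strand) holds 3. The stretches end before the start, and in the window from 250 bases before to 50 after it both genes hold 3. RPT1A fell and its copy RPT1B rose: RPT1A (chr1:20068501-20068650, reverse strand) holds 2 sites, and RPT1B (chr1:20079023-20079080, reverse strand), shown only as far as the next gene, holds 3. RPN12B, which rose and was low in WT, is shown as well: RPN12B (chr5:16814750-16814899, reverse strand) holds 3.
PBA1: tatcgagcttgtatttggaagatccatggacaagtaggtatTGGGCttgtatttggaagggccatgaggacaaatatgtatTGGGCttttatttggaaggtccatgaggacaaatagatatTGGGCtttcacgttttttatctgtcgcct
PAG1: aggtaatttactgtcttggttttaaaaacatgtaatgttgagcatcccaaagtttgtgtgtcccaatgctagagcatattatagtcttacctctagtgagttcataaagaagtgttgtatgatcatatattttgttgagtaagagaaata
PAC1: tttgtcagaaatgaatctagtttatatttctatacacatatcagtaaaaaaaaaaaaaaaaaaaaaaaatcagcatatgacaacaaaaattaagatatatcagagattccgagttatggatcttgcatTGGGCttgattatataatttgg
PAC2: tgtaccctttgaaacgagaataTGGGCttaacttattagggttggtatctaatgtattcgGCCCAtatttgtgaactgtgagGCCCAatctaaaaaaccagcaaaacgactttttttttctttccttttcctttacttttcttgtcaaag
RPT1A: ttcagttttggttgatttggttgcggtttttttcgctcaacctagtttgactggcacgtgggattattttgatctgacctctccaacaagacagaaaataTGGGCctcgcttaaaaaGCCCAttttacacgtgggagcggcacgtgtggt
RPT1B: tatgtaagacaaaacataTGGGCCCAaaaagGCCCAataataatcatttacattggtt
RPN12B: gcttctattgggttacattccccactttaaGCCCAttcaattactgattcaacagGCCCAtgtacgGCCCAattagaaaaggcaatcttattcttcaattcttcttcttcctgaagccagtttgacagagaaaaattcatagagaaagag

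In windows of 250 bases before to 50 bases after the start, TGGGC stood on either strand in 26 of the 46 members (56.5%), against 25.99% of 27444 nuclear protein-coding genes and 29.2% of the tested ones. The core loci held it in 16 of 24 windows (66.7%) and the regulatory loci in 10 of 22 (45.5%). At least 2 sites stood in 19 members (41.3%), against 14.5% of all genes. The longer forms TGGGCC and TGGGCT, both of which contain TGGGC, were each found in 19 members (41.3%), against 15.5% and 14.2% of all genes. The median log2 fold change was -0.70 over the 26 with TGGGC and -0.65 over the 20 without. The order differed by particle. Among core loci the median was -0.70 with TGGGC and -0.82 without, and among regulatory loci -0.69 with TGGGC and -0.54 without. Over all tested nuclear protein-coding genes the median was -0.18 for the 5693 with TGGGC and 0.007 for the 13794 without. A lower median with TGGGC is thus not particular to the members. Genes that fell and genes that rose both carried it, as the printed stretches of PBA1 and PAC2 show. A match of letters is a description of the window and not a mapped binding site.

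The outer alpha rings form the gate of the core. Of 13 alpha loci 11 fell, PAC2 rose and PAE1 did not pass the test, with a median log2 fold change of -0.80. Over all loci tested, 34.1% were called lower and 31.3% higher. PAF2 (AT1G47250) changed most among the members that fell, with 11.5, 16.9 and 14.8 TPM in the sos2-2 samples, against 37.1, 33.8 and 40.8 TPM in the WT samples (log2 fold change -1.32, SE 0.16, adjusted p = 0.000272). Its partner PAF1 is the more abundant copy and had 94.9, 103 and 88.05 TPM in the sos2-2 samples, against 171, 174 and 179.5 TPM in the WT samples (log2 fold change -0.87, SE 0.11, adjusted p = 0.000358). PAG1 (AT2G27020), the only gene of its position, had 98.3, 112 and 90.4 TPM in the sos2-2 samples, against 239, 219.5 and 238 TPM in the WT samples (log2 fold change -1.21, SE 0.12, adjusted p = 0.000130). The sos2-2 values of PAG1 lay far below its WT values, and the spread within either group was small beside that gap. PAB1 had 57.3, 55.4 and 47.3 TPM in the sos2-2 samples, against 125, 112 and 122 TPM in the WT samples (log2 fold change -1.15, SE 0.12, adjusted p = 0.000149), while its copy PAB2 averaged 51.4 ± 5.08 TPM in sos2-2 and 86.4 ± 3.80 TPM in WT (log2 fold change -0.74). With the fall of PAB1 the copies came to similar levels in sos2-2. PAC1 (AT3G22110) had 78.2, 98.6 and 78.2 TPM in the sos2-2 samples, against 177, 170.2 and 173 TPM in the WT samples (log2 fold change -1.03, SE 0.13, adjusted p = 0.000329). PAC2 had 19.4, 16.7 and 16.3 TPM in the sos2-2 samples, against 3.74, 3.02 and 3.94 TPM in the WT samples (log2 fold change 2.02, SE 0.14, adjusted p = 3.29e-05). The rise of PAC2 was the largest change of any member. PAC2 had the lowest mean of the 46 members in WT, while in sos2-2 the means of PAF2, PBE2 and RPT5B were lower. That order rests on means, since single sos2-2 values of PAC2 overlap those of all 3 genes. PAA1 and PAA2 averaged 105 and 68.3 TPM in sos2-2, against 188 and 119 TPM in WT (log2 fold changes -0.83 and -0.80). PAD1 and PAD2 averaged 98.2 and 46.4 TPM in sos2-2, against 155 and 66.8 TPM in WT (log2 fold changes -0.65 and -0.52). The PAE position moved least in the alpha rings. PAE1 had 82.9, 71.3 and 71.1 TPM in the sos2-2 samples, against 90.1, 82.9 and 88.1 TPM in the WT samples (log2 fold change -0.21, SE 0.11, adjusted p = 0.133), a difference that missed the threshold. Its groups did not overlap but nearly touched, at 82.88 TPM in sos2-2 replicate 1 and 82.92 TPM in WT replicate 2. PAE2 averaged 81.2 ± 10.8 TPM in sos2-2 and 103 ± 3.09 TPM in WT and passed narrowly (log2 fold change -0.35, adjusted p = 0.0412). That call was lost in 5 of the 6 fits that left out 1 sample, all but the one without sos2-2 replicate 1.

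The inner beta rings hold the cutting sites. Of 11 beta loci 10 fell and PBB2 did not pass the test, with a median log2 fold change of -0.76. The share called lower over all loci tested was 34.1%. PBA1 (AT4G31300), the subunit with caspase-like activity, had 102, 106 and 94.4 TPM in the sos2-2 samples, against 241, 216 and 234 TPM in the WT samples (log2 fold change -1.18, SE 0.11, adjusted p = 9.28e-05). It fell 2.29-fold, as a ratio of mean TPM. The trypsin-like subunit is encoded by PBB1 and PBB2. PBB1 had 118, 129 and 106 TPM in the sos2-2 samples, against 169.8, 153 and 176 TPM in the WT samples (log2 fold change -0.50, SE 0.12, adjusted p = 0.00878), and PBB2 had 79.96, 61.2 and 64.5 TPM in the sos2-2 samples, against 81.05, 70.6 and 80.1 TPM in the WT samples (log2 fold change -0.18, SE 0.14, adjusted p = 0.283). Only PBB2 of the beta loci had overlapping groups. The chymotrypsin-like subunit is encoded by PBE1 and PBE2. PBE1 had 115, 128 and 107 TPM in the sos2-2 samples, against 209, 181 and 203 TPM in the WT samples (log2 fold change -0.76, SE 0.12, adjusted p = 0.00114). PBE2, the minor copy, had 19.7, 16.7 and 14.7 TPM in the sos2-2 samples, against 29.7, 26.2 and 29.5 TPM in the WT samples (log2 fold change -0.71, SE 0.14, adjusted p = 0.00247). Both PBE copies fell by a similar ratio, 1.69-fold and 1.67-fold, so the split between them stood at the same place in both groups. Among the beta subunits without a cutting site, PBF1 (AT3G60820) had 105, 101 and 85.7 TPM in the sos2-2 samples, against 246, 222 and 238 TPM in the WT samples (log2 fold change -1.27, SE 0.12, adjusted p = 0.000106). PBD1 had 42.7, 49.2 and 41.8 TPM in the sos2-2 samples, against 99.4, 93.2 and 100.1 TPM in the WT samples (log2 fold change -1.12, SE 0.11, adjusted p = 0.000130). PBD2 had 45.7, 44.4 and 38.4 TPM in the sos2-2 samples, against 100.3, 96.5 and 102 TPM in the WT samples (log2 fold change -1.20, SE 0.11, adjusted p = 9.44e-05). The PBD copies stood at nearly equal levels in each group and fell together. PBC1 and PBC2 averaged 78.7 and 53.1 TPM in sos2-2, against 128 and 92.8 TPM in WT (log2 fold changes -0.69 and -0.80). PBG1, a single gene, averaged 101 ± 16.1 TPM in sos2-2 and 152 ± 8.83 TPM in WT (log2 fold change -0.60, adjusted p = 0.00677).

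**Figure D2:**
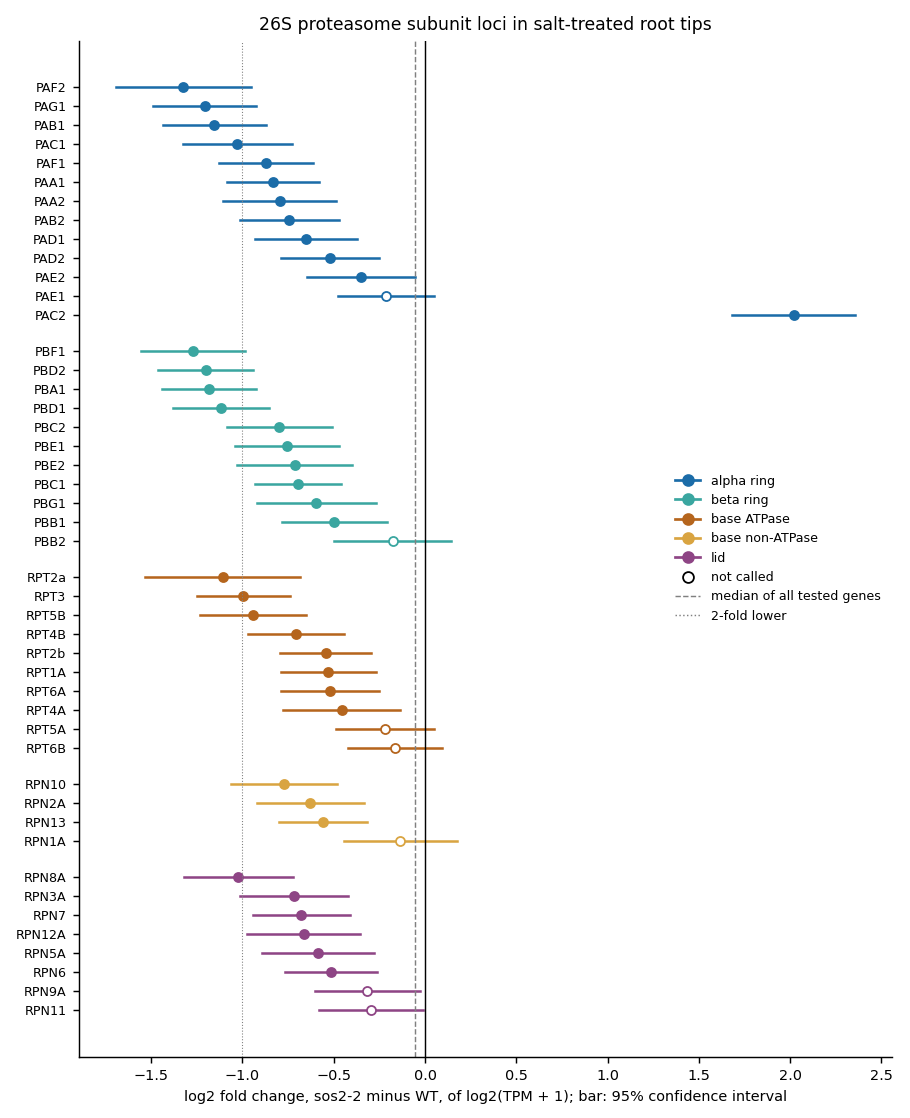
Log2 fold change (sos2-2 minus WT, on log2(TPM + 1)) of the 46 loci with 95% confidence intervals, by subcomplex, with open circles for the 7 loci not called. The points lie left of 0 except PAC2 at 2.02, and 10 lie left of the line for a 2-fold fall.

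The base ATPases, RPT1 to RPT6, unfold substrates and thread them into the core. Of 10 member loci 8 fell, against 34.1% of all loci tested, with a median log2 fold change of -0.54. RPT2a (AT4G29040), whose loss in Arabidopsis disturbs the root meristem, had 58.8, 96.8 and 81.8 TPM in the sos2-2 samples, against 172, 161 and 171 TPM in the WT samples (log2 fold change -1.11, SE 0.18, adjusted p = 0.00127). RPT2b had 46.8, 52.3 and 48.6 TPM in the sos2-2 samples, against 76.1, 68.2 and 72.3 TPM in the WT samples (log2 fold change -0.54, SE 0.11, adjusted p = 0.00298). The sos2-2 samples spread more widely for RPT2a than for RPT2b, and sos2-2 replicate 1 was the lowest. RPT3, a single gene, averaged 81.4 ± 5.53 TPM in sos2-2 and 163 ± 6.30 TPM in WT (log2 fold change -0.996, adjusted p = 0.000184). RPT5A (AT3G05530) had 161, 148 and 134 TPM in the sos2-2 samples, against 169, 168 and 177 TPM in the WT samples (log2 fold change -0.22, SE 0.11, adjusted p = 0.128). RPT5B had 13.9, 17.7 and 15.2 TPM in the sos2-2 samples, against 30.96, 29.2 and 32.1 TPM in the WT samples (log2 fold change -0.94, SE 0.12, adjusted p = 0.000429). The major RPT5 copy missed the threshold without overlap of the groups, while the minor copy fell 1.98-fold as a ratio of mean TPM. RPT6B had 52.8, 48.4 and 46.2 TPM in the sos2-2 samples, against 57.7, 51.4 and 56.7 TPM in the WT samples (log2 fold change -0.17, SE 0.11, adjusted p = 0.215), with overlapping groups. RPT6A averaged 58.3 ± 3.21 TPM in sos2-2 and 84.3 ± 7.16 TPM in WT (log2 fold change -0.52). The RPT6 copies share more sequence than any other pair, so their split is less certain than that of the other pairs. RPT1A averaged 141 ± 9.84 TPM in sos2-2 and 204 ± 10.4 TPM in WT (log2 fold change -0.53). RPT4A and RPT4B averaged 45.2 and 66.2 TPM in sos2-2, against 62.8 and 109 TPM in WT (log2 fold changes -0.46 and -0.71). The call of RPT4A (adjusted p = 0.0201) was lost without sos2-2 replicate 3, WT replicate 1 or WT replicate 3.

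The other base subunits are the scaffolds RPN1 and RPN2 and the ubiquitin receptors RPN10 and RPN13. RPN10 (AT4G38630) had 68.98, 68.2 and 59.2 TPM in the sos2-2 samples, against 122, 101 and 116 TPM in the WT samples (log2 fold change -0.78, SE 0.12, adjusted p = 0.00112). RPN13 had 33.4, 34.9 and 32.3 TPM in the sos2-2 samples, against 50.5, 47.1 and 52.03 TPM in the WT samples (log2 fold change -0.56, SE 0.10, adjusted p = 0.00212). Both receptors fell without overlap of the groups. RPN1A (AT2G20580) had 62.7, 71.9 and 73.7 TPM in the sos2-2 samples, against 81.8, 66.2 and 81.8 TPM in the WT samples (log2 fold change -0.14, SE 0.13, adjusted p = 0.390), the smallest difference among the 46 members and one with overlapping groups. RPN2A averaged 49.5 ± 1.01 TPM in sos2-2 and 77.4 ± 10.03 TPM in WT (log2 fold change -0.63). Its sos2-2 values lay close together, and the spread was in WT.

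In the lid 6 of 8 member loci fell, against 34.1% of all loci tested, with a median log2 fold change of -0.63. RPN11 (AT5G23540), the metalloprotease that takes the ubiquitin chain off the substrate, had 176, 152 and 145 TPM in the sos2-2 samples, against 201, 179 and 201 TPM in the WT samples (log2 fold change -0.30, SE 0.12, adjusted p = 0.0649). RPN9A had 70.1, 63.3 and 58.3 TPM in the sos2-2 samples, against 82.1, 71.97 and 85.2 TPM in the WT samples (log2 fold change -0.32, SE 0.12, adjusted p = 0.0543). These were the lid members that missed the threshold, and in neither did the groups overlap. Both were called when sos2-2 replicate 1 was left out. RPN8A, which pairs with RPN11 in the complex, averaged 61.5 ± 6.36 TPM in sos2-2 and 126 ± 11.4 TPM in WT (log2 fold change -1.02), the largest fall among the 8 lid members. RPN3A and RPN5A averaged 44.3 and 84.3 TPM in sos2-2, against 73.6 and 127 TPM in WT (log2 fold changes -0.72 and -0.59). RPN6 and RPN7 averaged 84.4 and 127 TPM in sos2-2, against 121 and 203 TPM in WT (log2 fold changes -0.52 and -0.68). RPN12A averaged 88.7 ± 10.9 TPM in sos2-2 and 141 ± 11.5 TPM in WT (log2 fold change -0.66). These 4 scaffold subunits and RPN12A thus lay in a narrow band around the median of the lid.

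Core and regulatory particle were then set side by side. Of 24 core loci 21 fell, 1 rose and 2 were not called, with a median log2 fold change of -0.78. Of 22 regulatory loci 17 fell and 5 were not called, with a median of -0.57. Beside both counts, 34.1% of all loci tested were called lower and 31.3% higher. Summed TPM of the core loci was 1778, 1818 and 1594 TPM in the sos2-2 samples, against 3147, 2899.8 and 3107 TPM in the WT samples, a 1.76-fold lower mean. Summed TPM of the regulatory loci was 1678, 1725 and 1583 TPM in the sos2-2 samples, against 2588, 2317 and 2600.5 TPM in the WT samples, a 1.51-fold lower mean. The ratio of the core sum to the regulatory sum was 1.06, 1.05 and 1.01 in the sos2-2 samples, against 1.22, 1.25 and 1.19 in the WT samples, with no overlap. The core members hold both copies of every core pair, while the regulatory members leave out 8 second copies and the DSS1 loci. Sums, ratios and medians of the particles therefore hold for the listed members only and depend in part on which loci were listed. By sums and by the median of the fold changes the core fell further. The per-sample medians of log2(TPM + 1) ran the other way: the core median minus the regulatory median was 0.26, 0.21 and 0.18 in the sos2-2 samples, against 0.057, 0.20 and 0.064 in the WT samples, groups that overlap. Which particle fell further therefore depends on the measure, and the contrast is given as a description with no test. Across the 46 members the log2 fold change and the mean TPM in WT had a Spearman rho of -0.34, or -0.29 without PAC2, over points that share the same 6 libraries and whose WT values enter both axes.

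Gene copies were added up for 32 positions of the complex, with second copies outside the 46 members included. The DSS1 loci, described below, were left out, so ranks and falls hold among these 32 only. DSS1(I) alone averaged 75.7 TPM in sos2-2 and 281 TPM in WT. The median total was 105.8 TPM in sos2-2 and 191.7 TPM in WT. Among the 32, the single-copy positions PBF, PAG and PBA fell most, by 2.42-, 2.32- and 2.29-fold as ratios of mean TPM. RPN1, at 99.5 ± 5.33 TPM in sos2-2 and 112 ± 14.5 TPM in WT, and RPT1, at 189.6 ± 16.6 TPM in sos2-2 and 224 ± 10.8 TPM in WT, differed least. RPT1 had the highest mean of the 32 totals in sos2-2 and stood at rank 8 in WT, and RPN13 was the lowest in both. RPT1 and PBB (186 ± 13.96 TPM in sos2-2 and 244 ± 17.6 TPM in WT) were within their spread in sos2-2, and in sos2-2 replicate 1 the totals of PBB, PAE, RPN11, PAA and RPT5 were above that of RPT1. By their SD, the totals of the 14 core positions were closer to each other in WT than in sos2-2. This SD on the log2 scale was 0.360, 0.348 and 0.357 in the sos2-2 samples, against 0.238, 0.242 and 0.233 in the WT samples. The highest core total over the lowest was 2.24, 2.06 and 2.13 in the sos2-2 samples, against 1.98, 2.15 and 1.93 in the WT samples, groups that overlap. For the 18 regulatory positions the SD averaged 0.574 in sos2-2 and 0.525 in WT.

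**Figure D3:**
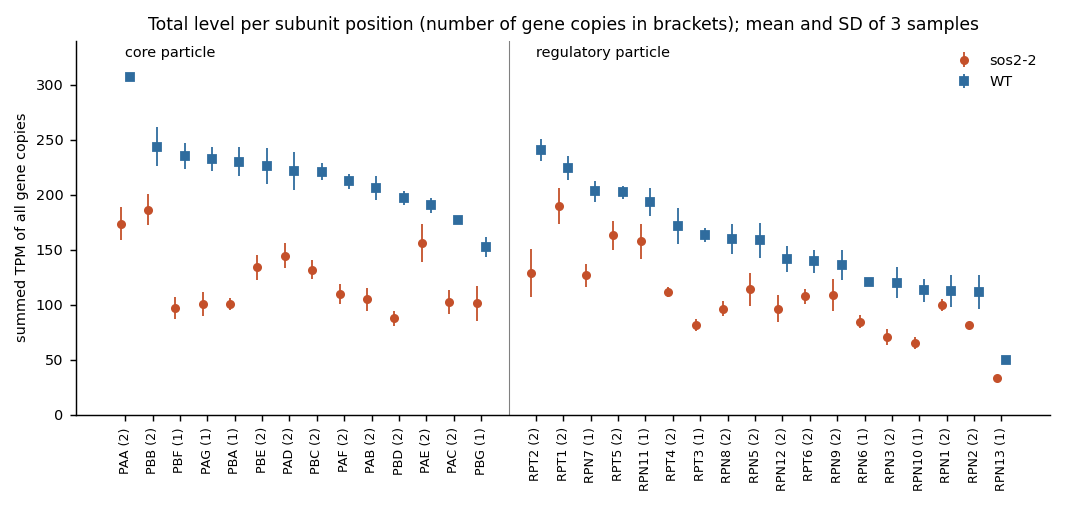
Summed TPM of all gene copies for each of the 32 subunit positions, mean and SD of 3 samples, circles for sos2-2 and squares for WT, with the number of copies in brackets. DSS1 is not among the positions. PBF is at rank 23 of the sos2-2 totals and at rank 4 of the WT totals, and RPT1 has the highest mean in sos2-2, within its spread of PBB.

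Paralogous copies were compared within each sample by their ratio. Of 22 pairs, 14 with both copies among the members and 8 whose second copy is not a member, 14 had copy ratios that did not overlap between the groups. No share over other pairs of genes was computed. Of all 19527 loci tested, 7236 lay wholly lower in sos2-2 and 6843 wholly higher, but levels of single loci are another measure than copy ratios. Whether the count of 14 is particular to these pairs is therefore not known, and nothing is read from it. In 10 of the 14 the second copy gained share in sos2-2, and in 4 the first copy did. With 3 against 3 samples the two-sided exact permutation test cannot go below p = 0.1, so the pairs are described by values and overlap. Of the PAC pair, PAC2 made up 19.9%, 14.5% and 17.2% in the sos2-2 samples, against 2.07%, 1.75% and 2.23% in the WT samples. The log2 ratio of PAC1 to PAC2 differed by -3.05 (sos2-2 minus WT, exact permutation p = 0.1). Of the RPN12 pair, RPN12B made up 7.86%, 8.27% and 7.69% in the sos2-2 samples, against 0.323%, 0.516% and 0.950% in the WT samples. Which of these 2 pairs shifted more depended on the pseudocount, since with 0.1 in place of 1 TPM the difference was -3.30 for PAC1 over PAC2 and -3.81 for RPN12A over RPN12B, and with 5 TPM it was -2.38 for PAC1 over PAC2 and -1.75 for RPN12A over RPN12B. Of the RPT1 pair, RPT1B made up 23.1%, 26.02% and 28.03% in the sos2-2 samples, against 9.46%, 9.63% and 8.87% in the WT samples. In each of these pairs the copy that is minor in WT had a larger share in every sos2-2 sample. Of the RPN8 pair, RPN8B held 36.2% ± 2.80 in sos2-2 and 21.1% ± 0.422 in WT, while its own level was 34.7 ± 2.22 TPM in sos2-2 and 33.5 ± 2.24 TPM in WT and was not called, so the shift came with the fall of RPN8A. Likewise RPN2B (32.00 TPM in sos2-2, against 34.2 TPM in WT) and RPN5B (29.7 TPM in sos2-2, against 31.3 TPM in WT) were not called, and their shares were higher in sos2-2 beside falling RPN2A and RPN5A. Of the RPT2 pair, RPT2b held 44.4%, 35.1% and 37.3% in the sos2-2 samples, against 30.6%, 29.7% and 29.7% in the WT samples. Of the PAB pair, PAB2 held 49.05% ± 0.430 in sos2-2 and 41.9% ± 0.391 in WT. In both of these pairs each copy fell, the first copy further. The shift ran the other way in the RPT5 and PAF pairs, where the minor copy lost share. RPT5B held 9.60% ± 1.47 in sos2-2 and 15.2% ± 0.374 in WT, and PAF2 held 13.1% ± 2.01 in sos2-2 and 17.5% ± 1.14 in WT. In the PBE pair the groups overlapped, and PBE2 held 12.7% ± 1.62 in sos2-2 and 12.6% ± 0.133 in WT.

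**Figure D4:**
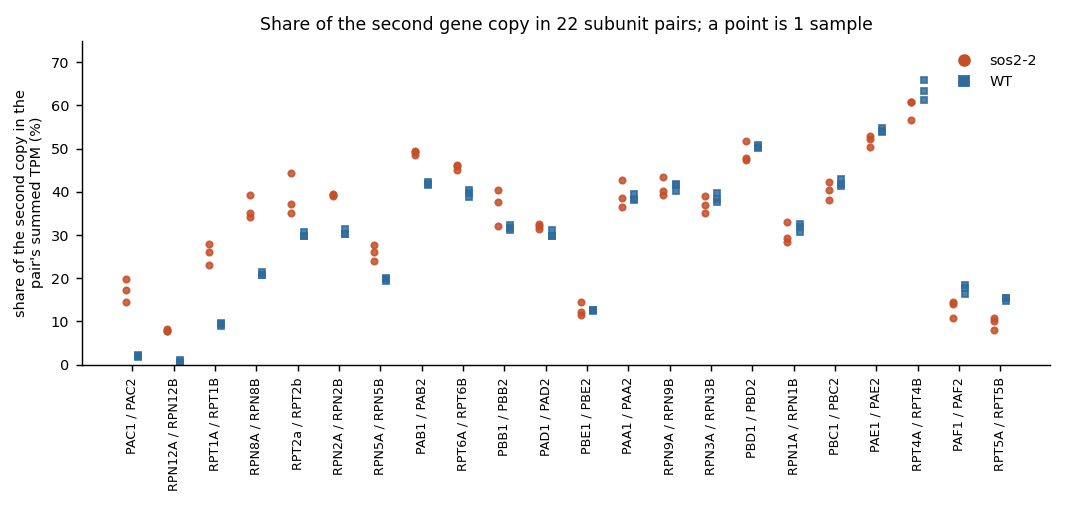
Share of the second gene copy in the summed TPM of its pair, in percent, for 22 pairs, with circles for the 3 sos2-2 samples and squares for the 3 WT samples. The circles lie above the squares for PAC2, RPN12B and RPT1B at the left and below them for PAF2 and RPT5B at the right.

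Near-identical copies can trade reads in the authors' quantification, so the sequences of the pairs were compared. Coding sequences of the 2 copies were identical at 80.3% to 94.4% of aligned bases (median 86.8%). Few stretches of 31 bases, long enough to tie a read to 1 copy, occurred in both. In the median pair the copy with the larger share had 0.516% of its 31-base stretches in common with the other. PAC1 and PAC2 had none in common, and neither did RPT5A and RPT5B. The RPN12 copies shared at most 0.212% and the RPT1 copies at most 4.09%. RPT6B shared 17.4% with RPT6A, the most of any pair.

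At the level of single isoforms the table lists 80 transcripts of the 46 loci, and 61 passed the filter. Of these 41 fell, 1 rose (that of PAC2) and 19 did not pass the test, against 25.7% called lower and 25.1% called higher of all 27461 transcripts tested. More than 1 isoform is listed for 22 loci, but in most a single one carried nearly all of the signal. The second isoform of RPN13 made up 38.98% ± 1.96 of the locus in sos2-2 and 46.8% ± 5.20 in WT, and the third 23.5% ± 2.24 in sos2-2 and 17.9% ± 2.02 in WT. The second RPN5A isoform made up 53.5% ± 0.739 in sos2-2 and 57.9% ± 1.34 in WT. The RPN7 split was the same within its spread, with 72.7% ± 1.53 from its second isoform in sos2-2 and 72.6% ± 1.38 in WT. These splits are estimates from overlapping transcripts and were not tested. With each member represented by its most abundant isoform, in a fit and an adjustment over all transcripts, every direction stayed as it was and 1 call was lost. That was PAE2, which has 1 listed isoform, so its values are the same and only the fit differed (adjusted p = 0.0534 by limma over transcripts, against 0.0412 over loci).

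The regulators of proteasome genes went the opposite way to most subunits. NAC53 and NAC78 are transcription factors that in Arabidopsis switch on proteasome genes when the proteasome is impaired. NAC53 (AT3G10500) had 235, 152 and 177 TPM in the sos2-2 samples, against 19.7, 23.9 and 24.4 TPM in the WT samples (log2 fold change 2.98, SE 0.18, adjusted p = 1.82e-05). NAC78 (AT5G04410) had 76.1, 67.3 and 74.5 TPM in the sos2-2 samples, against 47.03, 48.04 and 52.5 TPM in the WT samples (log2 fold change 0.55, SE 0.11, adjusted p = 0.00308). Both rose, NAC53 by 8.28-fold and NAC78 by 1.48-fold as ratios of mean TPM, with no overlap between the groups.

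Of 10 further subunit loci outside the 46 members, 8 second copies and the DSS1 loci, 3 fell, 2 rose and 5 did not pass the test. Of all loci tested, 34.1% were called lower and 31.3% higher, so these counts do not stand above the background. The loci DSS1(I) and DSS1(V) encode the small acidic protein that in yeast and human is a lid subunit. DSS1(V) (AT5G45010) had 20.8, 25.8 and 21.99 TPM in the sos2-2 samples, against 81.9, 87.4 and 81.8 TPM in the WT samples (log2 fold change -1.83, SE 0.12, adjusted p = 2.39e-05). DSS1(I) (AT1G64750) had 68.9, 91.3 and 67.00 TPM in the sos2-2 samples, against 272, 295 and 276 TPM in the WT samples (log2 fold change -1.89, SE 0.14, adjusted p = 4.35e-05). Both log2 fold changes were further below 0 than that of any of the 46 members. RPN3B averaged 26.2 ± 4.19 TPM in sos2-2 and 46.2 ± 6.25 TPM in WT and fell. The loci that rose were RPT1B, at 48.9 ± 8.06 TPM in sos2-2 and 20.9 ± 0.782 TPM in WT, and RPN12B, at 7.67 ± 1.25 TPM in sos2-2 and 0.862 ± 0.528 TPM in WT, and both, like RPN3B, were named after their values were seen.

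Of 10 loci of assembly factors and alternative caps, 5 fell, 2 rose and 3 did not pass the test. The shares over all loci tested were 34.1% called lower and 31.3% called higher. The maturation factor UMP1 is built into partly assembled core particles and is their first substrate. Its locus AT1G67250 had 58.8, 61.2 and 46.4 TPM in the sos2-2 samples, against 165, 160.1 and 173 TPM in the WT samples (log2 fold change -1.58, SE 0.13, adjusted p = 6.55e-05). Its locus AT5G38650 had 84.98, 81.9 and 78.3 TPM in the sos2-2 samples, against 169, 204 and 189 TPM in the WT samples (log2 fold change -1.18, SE 0.12, adjusted p = 0.000120). The locus AT1G48170, annotated as a proteasome assembly chaperone, averaged 6.86 ± 1.90 TPM in sos2-2 and 23.7 ± 1.59 TPM in WT and fell. PA200, a cap that can sit on the core in place of the regulatory particle, averaged 70.2 ± 14.4 TPM in sos2-2 and 23.02 ± 3.06 TPM in WT and rose (log2 fold change 1.55, SE 0.18, adjusted p = 0.000242). The other locus that rose, AT3G15180, annotated with a domain of 26S non-ATPase regulatory subunits, averaged 36.8 ± 7.10 TPM in sos2-2 and 24.97 ± 2.68 TPM in WT. AT1G48170, PA200 and AT3G15180 were named after their values were seen.

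**Figure D5:**
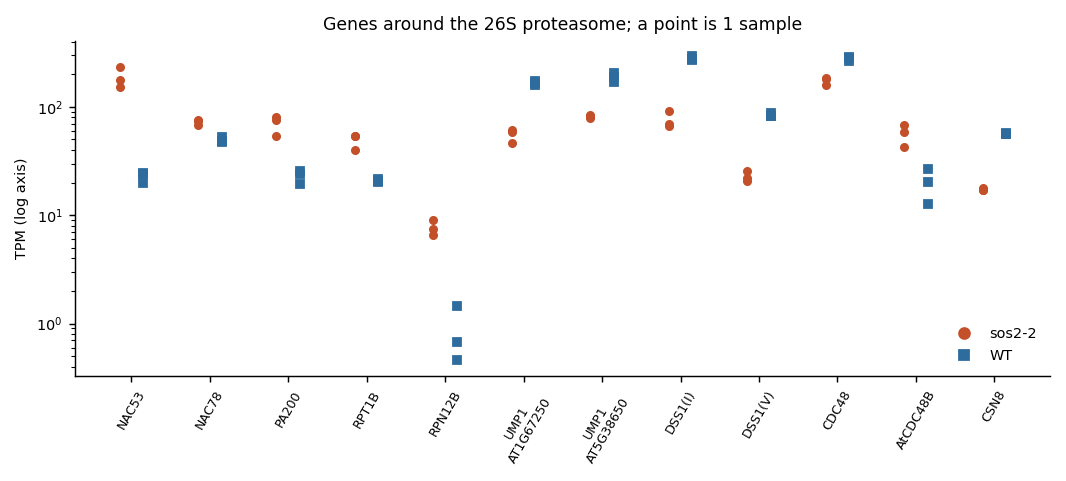
TPM on a log axis of 12 genes around the proteasome, with circles for the 3 sos2-2 samples and squares for the 3 WT samples. The circles are above the squares for NAC53, NAC78, PA200, RPT1B, RPN12B and AtCDC48B, and below them for both UMP1 loci, both DSS1 loci, CDC48 and CSN8.

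Upstream of the proteasome, 12 loci of shuttle receptors and of the CDC48 segregase, which pulls ubiquitinated proteins out of complexes, gave 6 that fell, 1 that rose and 5 that did not pass the test. The background over all loci tested was 34.1% called lower and 31.3% called higher. UFD1, a CDC48 cofactor, averaged 43.7 ± 1.62 TPM in sos2-2 and 73.3 ± 2.99 TPM in WT (log2 fold change -0.73, SE 0.10, adjusted p = 0.000548), and the shuttle receptor RAD23D averaged 81.9 ± 6.58 TPM in sos2-2 and 129.6 ± 4.22 TPM in WT (log2 fold change -0.66, SE 0.11, adjusted p = 0.00144). CDC48 (AT3G09840) averaged 176 ± 14.5 TPM in sos2-2 and 279 ± 14.97 TPM in WT and fell, while AT3G53230, annotated as AtCDC48B, averaged 56.5 ± 13.02 TPM in sos2-2 and 19.8 ± 6.96 TPM in WT and rose, both named after their values were seen. Of 7 loci of ubiquitin and its activating enzyme 1 fell, 2 rose and 4 did not pass the test. The polyubiquitin gene UBQ10 averaged 1915 ± 287 TPM in sos2-2 and 1179 ± 152 TPM in WT and rose, and UBQ11 averaged 517 ± 4.91 TPM in sos2-2 and 901 ± 99.2 TPM in WT and fell. Of 4 deubiquitinases of the proteasome 1 fell, UCH1, at 5.27 ± 0.876 TPM in sos2-2 and 10.8 ± 0.586 TPM in WT, and 3 did not pass the test. The counts of the ubiquitin and deubiquitinase lists did not stand above the background.

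The COP9 signalosome is a complex built like the proteasome lid that takes the ubiquitin-like protein NEDD8, named RUB in plants, off cullins. Of its 10 loci 5 fell, none rose and 5 did not pass the test, with a median log2 fold change of -0.34. CSN8 had 17.99, 16.9 and 17.1 TPM in the sos2-2 samples, against 56.5, 56.5 and 57.7 TPM in the WT samples (log2 fold change -1.66, SE 0.10, adjusted p = 1.67e-05). CSN5B, a copy of the catalytic subunit, had 6.12, 4.63 and 4.54 TPM in the sos2-2 samples, against 14.6, 12.7 and 14.8 TPM in the WT samples (log2 fold change -1.31, SE 0.15, adjusted p = 0.000229). Of the COP9 loci 5 of 10 were called lower, against 38 of the 46 proteasome loci and 34.1% of all loci tested, and the difference between the complexes was not tested.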

How the data were processed

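RNA-seq of root tips was deposited as 1 table of TPM per transcript for 6 samples, 3 sos2-2 and 3 WT. Per the submitters' processing notes, the tools were sleuth 0.30.0 and kallisto 0.46.2, with TAIR10 as the build. Their roles, the annotation release and strandedness are not stated there. Columns of other samples numbered 0. The TPM values as deposited hold no depth, so no counting interval is given, and a change in abundant transcripts shifts all others. TPM of 48359 transcripts were summed to 27655 loci.

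The test was limma 3.58.1 (R 4.3.3) on log2(TPM + 1) for the 19527 loci with a mean of at least 1 TPM, with genotype as the only term, a mean-variance trend and robust moderation, and Benjamini-Hochberg adjustment over all tested loci. Calls had an adjusted p under 0.05. Log2 fold changes are sos2-2 minus WT and understate low genes, and ratios in the text are of mean TPM. Values after ± are SDs of 3 samples. Copy shares and ratios came from TPM, ratios with a pseudocount of 1. Names, sequences, coding identity (Biopython 1.88) and promoters came from RefSeq's TAIR10.1 annotation, and no coordinates came from the deposited table.

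The members and lists were chosen with earlier results of these data known. The range of the members' mean TPM as a background, and the comparison of 31-base stretches, were chosen after seeing the data. Genes with values per sample were the 8 members with the largest and the 8 with the smallest log2 fold change, the catalytic subunits, RPN10, RPN11, RPN13, both copies of the 4 member pairs with the largest ratio shift, NAC53 and NAC78. In each further list the 2 called genes with the smallest p were named (1 where under 3 were called), and any other gene was chosen after its values were seen. Alternatives left out each sample, changed filter, pseudocount or scaling, weighted samples, added the replicate number or took single isoforms.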

Additional observations from a re-analysis of the deposited data

How the results depend on the processing

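The count of members called lower stayed between 36 and 45 in every alternative run, and PAC2 was the 1 member called higher in each of them. Of the 39 called members 37 kept their call without each sample in turn, and PAE2 and RPT4A lost it in at least 1 such fit. No member changed direction. Without each sample in turn, the members called lower ranged from 36 to 40, the core median from -0.84 to -0.71 and the genes called in the niche and root cap list from 3 to 5. The core median was -0.86 under quantile normalization and -0.91 with sample weights, and the regulatory median was -0.67 under each. The median of all genes moved from -0.05 to -0.011 under TMM-type scaling, -0.0030 with no filter, -0.022 with a mean of at least 5 TPM and -0.099 with sample weights, shifts of under 0.1. Sample weights, whose estimation stopped before it converged, called all 46 members, 10 further subunit loci, 12 receptor loci, 6 ubiquitin loci, 4 deubiquitinases and 7 niche and root cap genes. This fit called 17681 of the 19527 loci tested, against 12780 without weights, so its counts are close to its background and nothing is read from them. Among the second copies that were not called, leaving out 1 sample moved RPN2B between -0.20 and 0.020, RPN5B between -0.24 and 0.017 and RPN8B between -0.0054 and 0.10 on the log2 scale, and RPN8B was -0.068 under quantile normalization and -0.10 with sample weights. The causes were not tested. Of 220 pair ratios recomputed, 6 moved by more than the spread between samples, and 7 turned in sign, among the PAA, PBE and RPN9 pairs, whose shifts were near 0. With the replicate number as a block, 37 members were called lower and PAE2 lost its call, and no other member's call changed. Deviations of same-numbered samples correlated at 0.177, 0.0505 and 0.0575. For sos2-2 replicates 1 and 2 the same number gave the highest value, while sos2-2 replicate 3 correlated best with WT replicate 2, at 0.182. With 3 samples per group these values cannot settle whether the numbers pair the samples. Sequencing depth is unknown, so no limit set by depth can be given.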
